A study of Mus musculus with 8 samples.

Results

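Transcripts of 10 genes known from stromal and endothelial cells (Col1a1, Col1a2, Col3a1, Col4a1, Sparc, Bgn, Acta2, Kdr, Cdh5 and Pecam1) were followed in the spleens of male mice, some of which carried Yaa, a mutation of the Y chromosome known to stem from a translocated piece of the X. The members were all probe sets that the platform annotation assigns to exactly 1 of these symbols, which gave 10 of 18193 genes and 22 of the 45037 probe sets other than controls. The 7 collagen, matrix and smooth muscle genes held 18 of these probe sets and the 3 endothelial genes 4. Total RNA was hybridised to 1 Affymetrix mouse array per sample, with 4 arrays of wild-type C57Bl/6J males and 4 of B6.SB-Yaa/J males, all 8 weeks old and with no treatment named. Each array came from the spleen of 1 mouse, except Yaa 3, which pooled cells of 2 spleens; the source label of Yaa 2 also speaks of males in the plural, but the design text and a sample note name only Yaa 3 as the pool. The tissue label reads whole spleen, whereas the design describes suspensions teased through screens of 70 microns with red cells lysed, a step that holds back tissue pieces. Samples carry their label numbers, wild type 1 to 4 and Yaa 1 to 4, which were not used as pairs in the main fit. The p-values measure the spread between these arrays. Whether the strains differ outside the Y chromosome was not analysed here.

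The spleen is held up by a capsule, trabeculae and a reticular meshwork whose fibroblastic cells lay down fibrillar collagens, and its vessels and sinuses are lined by endothelium resting on a basement membrane of type IV collagen. Contractile cells of the capsule, trabeculae and arterioles contain smooth muscle actin. Most cells freed from a spleen are leukocytes, so stromal transcripts in a suspension depend both on the organ and on how much of its framework is carried over. In RNA from a mixture, fewer cells of a type and less RNA per cell cannot be told apart.

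The 2 members whose groups did not overlap were Acta2 and Kdr, and parts of their upstream windows are shown together with that of Sparc, the member in which Yaa 3 lay farthest from the mean of the other Yaa arrays. Of the 10 genes, 7 were found in the RefSeq promoter table (build GRCm38.p6), in which a window runs from 250 bases before a listed start. The Acta2 gene lies on chromosome 19 from 34240336 to 34255585 and is read from the minus strand. Its window held a pair of CArG boxes, elements bound by serum response factor in muscle genes, each with 1 base other than A or T in its core; none had a full A and T core. The box is in capitals, read 5′ to 3′ on the gene's strand, first at chr19:34255438-34255467 and then at chr19:34255388-34255417.
Acta2 far box: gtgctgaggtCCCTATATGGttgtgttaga
Acta2 near box: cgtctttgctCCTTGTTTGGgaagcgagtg
Among 32851 windows of the same length, searched on both strands, 8.59% held at least 1 such relaxed box and 0.670% at least 2; a box with a full core was in 1.47%.

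The Kdr gene lies on chromosome 5 from 75932827 to 75979072 on the minus strand. Its listed start, base 75978455, also lies inside the annotated gene, as do both stretches shown. The motif GGGCGG, the core of a GC box, occurred 2 times as its reverse complement, in capitals, at chr5:75978604-75978633 and chr5:75978483-75978512.
Kdr far box: agatgcgacttgCCGCCCggcacagttccg
Kdr near box: ccggtaatgaccCCGCCCccattcgctagt
The Kdr window also held 1 relaxed CArG box, 236 to 227 bases before the start, and that of Col1a2 held 1 at 228 to 219 bases. At least 1 GGGCGG on either strand was present in 32.7% of all windows and at least 2 in 16.7%. For Sparc, on chromosome 11 from 55394159 to 55420080 on the minus strand, the 200 bases before the start, chr11:55420081-55420280, held none of the motifs searched on either strand. These were the CArG box, its relaxed form, the GC box core, the TATA box (TATAAA) and the CCAAT box.
Sparc upstream: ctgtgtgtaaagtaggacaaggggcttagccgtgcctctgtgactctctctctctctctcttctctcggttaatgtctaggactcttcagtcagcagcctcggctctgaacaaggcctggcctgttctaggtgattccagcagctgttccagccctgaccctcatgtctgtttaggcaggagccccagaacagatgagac
The TATA box letters were in 12.4% of all windows and the CCAAT box letters in 33.8%. These matches describe letters in a window and are not measured binding sites.

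Each probe set has 1 MAS5 signal per array, a brightness on a linear scale. The trimmed mean signal ran from 106 in Yaa 3 to 192 in wild type 2, so all arrays were quantile normalized and values were taken as log2(signal + 16), whose lowest possible value is 4. Ptprc, the CD45 gene of leukocytes, had a mean of 12.88 ± 0.10 (SD, n = 4) for wild type against 12.82 ± 0.44 (SD, n = 4) for Yaa. It was lowest in Yaa 3, at 12.21 against 12.76 to 13.27 on the other arrays. Its difference was -0.06 with all arrays and 0.15 without Yaa 3. Opposite ends of the first principal component were held by Yaa 2, at 68.8, and Yaa 3, at -92.4, with the remaining arrays at -18.4 to 20.0, and this component held 56.8% of the variance. B cell markers (9 genes) averaged 10.20 to 10.94 on the other Yaa arrays and 5.57 in the pooled Yaa 3. Differences of the members, and those of other genes and lists that moved by over 1.5 times, are therefore given with and without Yaa 3. The test was limma's, over the 22518 probe sets above the median of mean log2 value, with p-values adjusted by the Benjamini-Hochberg method and a threshold of 0.05.

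Of the 7 probe sets of Col1a1, Col1a2 and Col3a1, 6 were below the filter and 1, of Col1a2, was just above it, and no group difference was detected. Col1a1 and Col1a2 encode the chains of type I collagen, the main tensile fibre, and Col3a1 that of type III collagen, the reticular fibre of spleen. Both Col1a1 probe sets were left out by the filter. The first, 1423669_at, had log2 values of 4.33, 4.07, 4.28 and 4.18 in wild type 1 to 4 and of 4.93, 4.18, 4.09 and 4.46 in Yaa 1 to 4. The second, 1455494_at, had 4.27, 4.20, 4.13 and 4.59 in wild type and 4.34, 4.07, 5.26 and 4.89 in Yaa. The highest array was Yaa 1 for the one and Yaa 3 for the other, so the probe sets of this gene did not point to the same array.

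Of the Col1a2 probe sets 1 of 3 was tested. In 1450857_a_at the wild-type log2 values were 5.78, 5.67, 5.01 and 5.36 and the Yaa values 5.16, 5.40, 5.90 and 5.03. The groups overlapped, with a difference in log2 units of -0.08 ± 0.25 (SE; limma adjusted p = 0.997), and of -0.26 ± 0.23 (SE) without Yaa 3 (limma adjusted p = 0.743). The other Col1a2 probe sets, 1423110_at and 1446326_at, lay between 4.05 and 4.89 on every array. Neither Col3a1 probe set was tested. The brighter, 1427883_a_at, had 5.33, 5.63, 5.21 and 4.97 in wild type and 5.33, 4.78, 5.33 and 4.97 in Yaa. The dimmer, 1427884_at, had 4.20, 4.07, 4.84 and 4.74 in wild type and 4.26, 4.94, 4.47 and 4.64 in Yaa. The groups overlapped in both.

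Col4a1, a chain of the type IV collagen of basement membranes, was highest in the pooled array in both of its tested probe sets and overlapped with wild type elsewhere. In 1452035_at the log2 values were 6.53, 6.38, 6.26 and 6.82 in wild type 1 to 4 and 6.29, 6.34, 7.68 and 5.91 in Yaa 1 to 4. In 1426348_at they were 5.76, 5.38, 4.31 and 5.74 in wild type and 5.23, 4.56, 7.08 and 5.08 in Yaa. Yaa 3 thus exceeded the mean of the other Yaa arrays by 1.50 and 2.13. The group differences were 0.06 ± 0.35 (SE) and 0.19 ± 0.55 (SE) (limma adjusted p = 0.9996 and 0.997) and turned to -0.32 ± 0.18 (SE) and -0.34 ± 0.37 (SE) without that array (limma adjusted p = 0.715 and 0.784). Col4a2, the partner chain, starts head to head with Col4a1 on chromosome 8, where the annotated genes overlap by 85 bases. Its log2 values were 5.63, 6.18, 6.09 and 6.25 in wild type and 5.18, 5.20, 6.47 and 5.90 in Yaa, with Yaa 3 again the highest. The Col4a2 difference was -0.35 ± 0.30 (SE) with all arrays and -0.61 ± 0.24 (SE) without Yaa 3 (limma adjusted p = 0.997 and 0.666).

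Sparc, a collagen-binding matrix glycoprotein that platelets also store, was highest in the pool in both tested probe sets. The probe set 1416589_at read 7.21, 6.39, 7.37 and 7.35 in wild type and 7.001, 6.76, 9.15 and 7.06 in Yaa. The deposited signals behind these values were 130.3, 86.5, 145 and 158 in wild type and 118, 104, 381 and 104 in Yaa. Yaa 3 was thus far above all other arrays on both scales, and the other Yaa arrays lay inside the wild-type range. The difference was 0.41 ± 0.50 (SE) with all arrays (limma adjusted p = 0.997) and -0.14 ± 0.24 (SE) without Yaa 3 (limma adjusted p = 0.865). The second tested probe set, 1448392_at, read 5.26, 5.46, 6.00 and 6.09 in wild type and 6.13, 5.74, 6.96 and 5.68 in Yaa. It differed by 0.43 ± 0.32 (SE), and by 0.15 ± 0.24 (SE) without Yaa 3 (limma adjusted p = 0.997 and 0.856). The sign without the pool thus differed between the tested probe sets. The third Sparc probe set, 1458204_at, was left out by the filter. It read 5.40, 5.002, 4.20 and 4.88 in wild type and 5.22, 4.90, 5.78 and 5.26 in Yaa. Its difference was 0.42, and 0.25 without Yaa 3.

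Bgn encodes biglycan, a small proteoglycan of the matrix, and lies on the X chromosome from 73483601 to 73495936. Its tested probe set, 1416405_at, read 6.43, 6.05, 6.03 and 6.30 in wild type and 5.95, 5.97, 6.75 and 6.07 in Yaa. The difference was -0.02 ± 0.21 (SE; limma adjusted p = 0.9998) and -0.21 ± 0.15 (SE; limma adjusted p = 0.729) without Yaa 3. After normalization Yaa 3 was again the highest array, but in the deposited signals wild type 1, 2 and 4, at 67.8, 62.9 and 67.5, were above Yaa 3, at 58.6. Both other Bgn probe sets, 1437889_x_at and 1448323_a_at, were left out by the filter and had overlapping groups. Their differences were -0.25 and -0.36, and -0.19 and -0.33 without Yaa 3.

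Acta2, the smooth muscle actin of contractile and activated stromal cells, was the member with the smallest p, and did not pass the test over all probe sets. The log2 values of 1416454_s_at were 6.35, 6.23, 5.78 and 6.52 in wild type 1 to 4 and 6.76, 6.62, 7.04 and 6.92 in Yaa 1 to 4. Every Yaa array lay above every wild-type array, by a margin between the nearest arrays that is smaller than the spread within either group. Group means were 6.22 ± 0.32 (SD, n = 4) and 6.84 ± 0.18 (SD, n = 4), a difference of 0.61 ± 0.18 (SE; limma unadjusted p = 0.00877, adjusted p = 0.841). Without the pool the difference was 0.55 ± 0.19 (SE; limma unadjusted p = 0.0191, adjusted p = 0.613), again with no overlap. In the deposited signals the groups did overlap, at 63.6, 74.8, 36.9 and 81.8 in wild type and 97.4, 93.8, 73.1 and 93.0 in Yaa, where Yaa 3, the array with the lowest trimmed mean, was below wild type 2 and 4; without it they did not overlap.

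The remaining Acta2 probe sets were below the filter and had overlapping groups. The log2 values of 1456658_at were 4.51, 4.26, 4.34 and 4.22 in wild type and 5.11, 4.88, 5.97 and 4.16 in Yaa. Here Yaa 1, 2 and 3 were above every wild-type array and Yaa 4 was the lowest of all arrays. The difference was 0.70, and 0.38 without Yaa 3, of the same sign as in 1416454_s_at. In 1444105_at the difference was -0.06, and -0.20 without Yaa 3, at values of 4.16 to 4.82. The suffix of 1416454_s_at marks probes shared with other transcripts, and actins are closely alike in sequence, so other actins were looked up after its values had been seen. Actg1, a cytoplasmic actin, had means of 12.78 ± 0.12 (SD, n = 4) for wild type and 13.001 ± 0.14 (SD, n = 4) for Yaa with no overlap, a difference of 0.22 ± 0.09 (SE; limma unadjusted p = 0.0408, adjusted p = 0.997). The other cytoplasmic actin, Actb, had overlapping groups in both of its tested probe sets, with differences of 0.21 ± 0.17 (SE) and 0.07 ± 0.06 (SE; limma adjusted p = 0.997 each). The muscle actins Acta1, Actc1 and Actg2 did not pass the filter. The part of other actins in the Acta2 reading was not tested.

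Kdr encodes VEGF receptor 2, the main receptor for vascular growth signals on endothelium, and has a single probe set. Its log2 values were 5.58, 5.49, 4.85 and 5.25 in wild type and 5.72, 5.71, 6.02 and 5.84 in Yaa. The groups did not overlap, though wild type 1 and Yaa 2 were only just apart, and the deposited signals, at 12.1 to 35.1 in wild type and 33.3 to 40.3 in Yaa, did overlap, but not without Yaa 3. The means were 5.29 ± 0.33 (SD, n = 4) and 5.82 ± 0.14 (SD, n = 4), a difference of 0.53 ± 0.19 (SE; limma unadjusted p = 0.0228, adjusted p = 0.996). Without Yaa 3 it was 0.47 ± 0.21 (SE; limma unadjusted p = 0.0514, adjusted p = 0.715). Leaving out wild type 3, the lowest array of Acta2 and of Kdr alike, gave 0.47 for Acta2 and 0.38 for Kdr (limma unadjusted p = 0.0209 and 0.0581, adjusted p = 0.9997 each).

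Cdh5, the VE-cadherin that seals endothelial junctions, showed no such separation. The tested 1433956_at read 5.41, 5.45, 5.40 and 5.63 in wild type and 5.20, 5.61, 6.32 and 5.62 in Yaa. Only Yaa 3 left the range of the others upwards. The difference was 0.22 ± 0.23 (SE) with all arrays and 0.0047 ± 0.18 (SE) without Yaa 3 (limma adjusted p = 0.997 and 0.994). The untested Cdh5 probe set, 1422047_at, had its lowest value in Yaa 3, at 4.16, so the probe sets of this gene placed the pool at opposite ends.

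Pecam1 (CD31) is an adhesion molecule of endothelial junctions that platelets, monocytes, neutrophils and some lymphocytes also carry. It was the 1 tested member that was lowest in the pool. The log2 values of 1421287_a_at were 7.97, 8.29, 8.47 and 8.63 in wild type and 8.08, 9.02, 7.30 and 8.16 in Yaa, with deposited signals of 536 in Yaa 2 and 90.1 in Yaa 3. The Yaa arrays thus held both the highest and the lowest value of the series. The difference was -0.20 ± 0.33 (SE) and 0.08 ± 0.25 (SE) without Yaa 3 (limma adjusted p = 0.997 and 0.930).

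**Figure D1:**
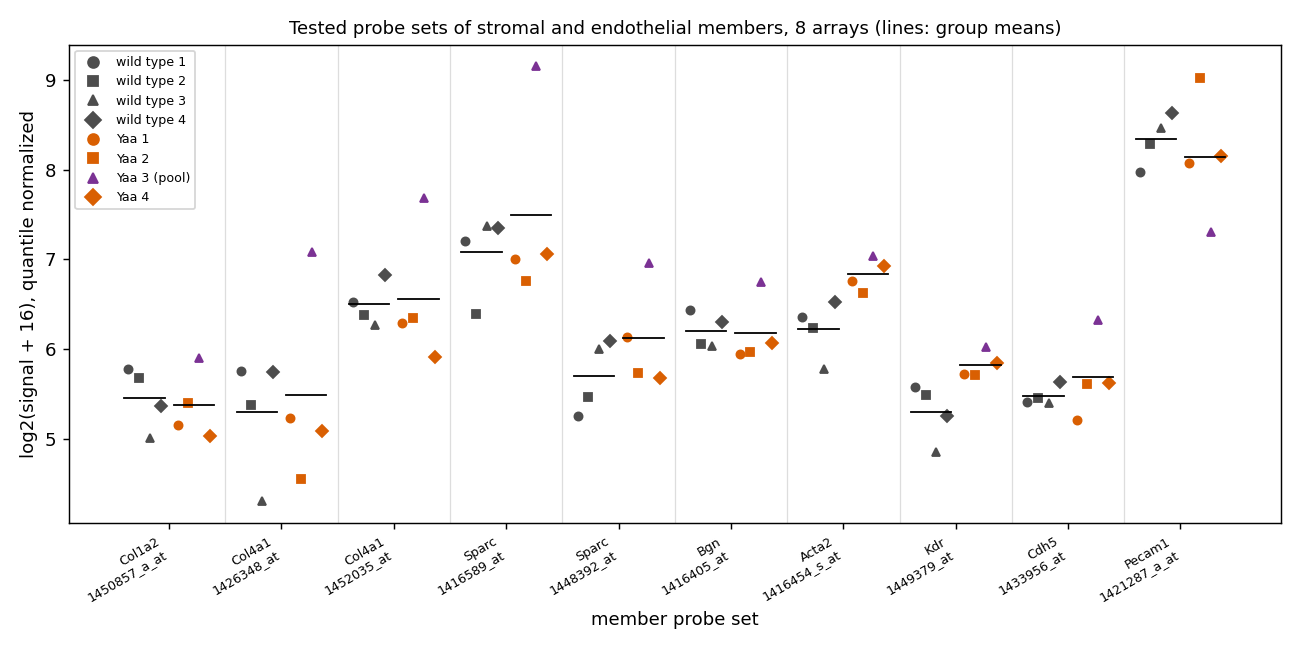
Log2(signal + 16) after quantile normalization for the 10 tested member probe sets, with a point per array (grey wild type, orange Yaa, purple the pooled Yaa 3) and lines at group means. Yaa 3 is the highest point in 9 of 10 probe sets and the lowest for Pecam1; the groups separate only for Acta2 and Kdr.

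Over the 10 tested member probe sets limma called 0, with 2 (Acta2 and Kdr, both higher in Yaa) at an unadjusted p under 0.05. Across all tested probe sets 1 was called higher (0.00444%) and 0 lower, and 4.73% had an unadjusted p under 0.05, 2.97% higher and 1.76% lower. All Yaa arrays lay above all wild-type arrays in 2 of 10 members, against 2.43% of all tested probe sets, with 1.67% on the lower side and 4.10% in all. Without Yaa 3, 0 members were called, where 0.00444% of all probe sets were called higher and 0 lower. That left 1 member, Acta2, at an unadjusted p under 0.05, against 6.93% of all probe sets, 3.86% higher and 3.07% lower. Acta2 and Kdr again did not overlap, against 4.77% of all probe sets on the higher side, 4.13% on the lower and 8.90% in all. The tested members had 7 higher and 3 lower means with all arrays, with a median difference of 0.20, and 5 and 5 without Yaa 3, with a median of -0.07. The median over all tested probe sets was -0.01, and 47.6% of them had higher means, a share of 18.3% on the deposited scale and 35.7% after median centring.

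**Figure D2:**
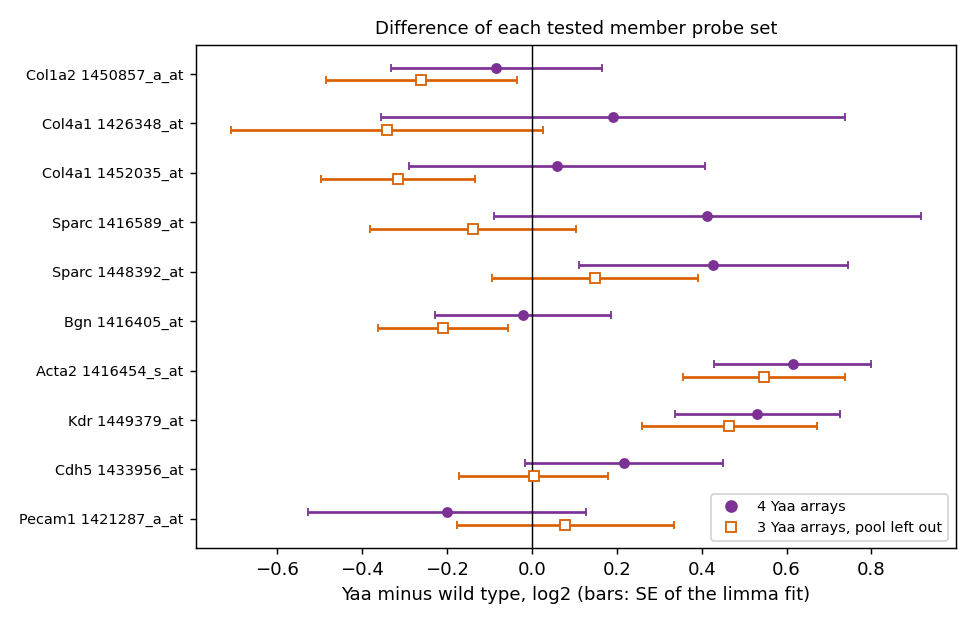
Yaa minus wild type on the log2 scale for each tested member probe set, with the SE of the limma fit, from all 4 Yaa arrays (filled) and from 3 with the pool left out (open). Acta2 and Kdr keep differences of 0.61 and 0.53 with all arrays and 0.55 and 0.47 without the pool; both Col4a1 probe sets and the brighter Sparc probe set turn from above 0 to below 0.

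Yaa 3 was the highest of the 8 arrays in 9 of the 10 tested member probe sets, where it was the highest in 30.8% of all tested probe sets. On the deposited scale, where Yaa 3 is the dimmest array, it was the highest in 5 of 10 members and in 2.82% of all tested probe sets, and with median-centred arrays in 8 of 10 and 17.0%. The 5 on the deposited scale were both probe sets of Col4a1, both of Sparc and that of Cdh5. Members of the same gene share their transcript and are not independent counts. The filter was on the mean over all 8 arrays, so a high value in Yaa 3 itself helped a dim probe set to be tested. The dimmer Col4a1 probe set and that of Col1a2 passed narrowly, with means of 5.39 and 5.41 against 5.38. Their values in Yaa 3 were 7.08 and 5.90. Among the 12 member probe sets below the filter, Yaa 3 was the highest array only for a Col1a1, a Sparc and an Acta2 probe set.

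**Figure D3:**
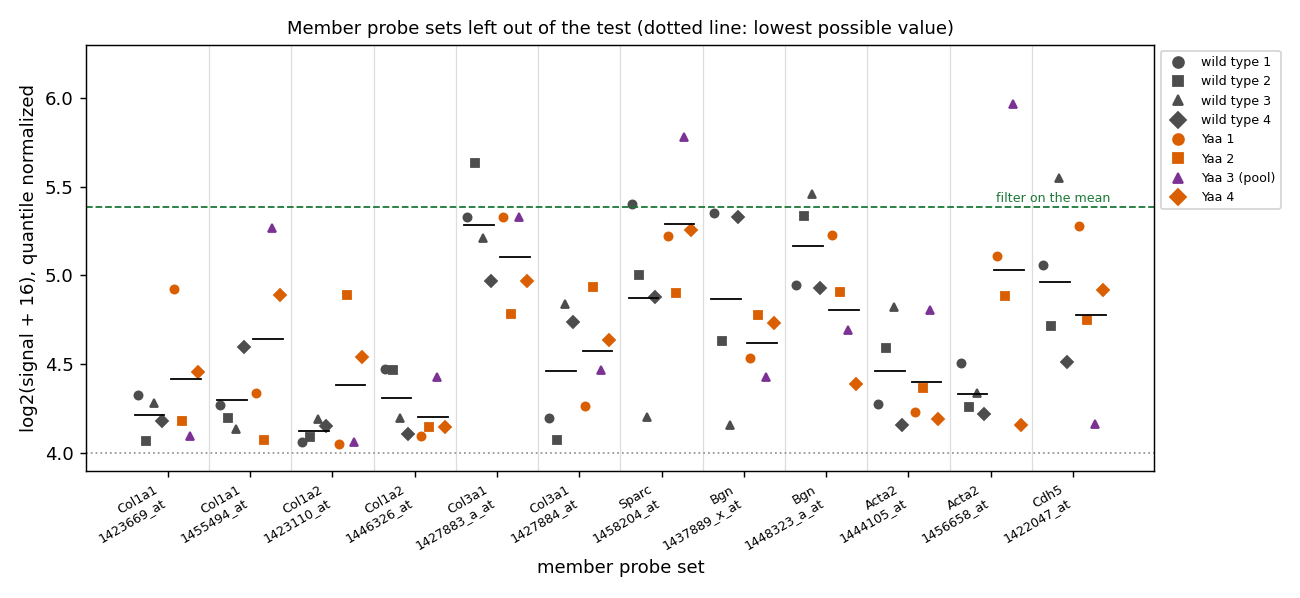
The 12 member probe sets below the filter, on the same log2 scale and with the same point colours; the dashed line is the filter on the mean over arrays and the dotted line the lowest possible value. Of the 96 values 75 are under 5, and none of the 12 separates the groups.

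The 12 member probe sets below the filter had values of 4.05 to 5.97, from deposited signals of 0.572 to 41.2. Their groups overlapped in all 12. In a fit without a filter, limma called 0 of them, against 0.00222% of all probe sets, and 0 had an unadjusted p under 0.05, the smallest being 0.0554 for Acta2 1456658_at; in that fit 4.99% of all probe sets had an unadjusted p under 0.05 and 3.56% had groups that did not overlap. At such levels a difference was not detectable, which does not show that these genes were equal.

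Other matrix and stromal genes, from lists chosen with earlier results known, were below the filter in 10 of 18 cases for the interstitial matrix. The 8 that were tested had 4 higher and 4 lower means, a median difference of 0.07 and 0 at an unadjusted p under 0.05. Without Yaa 3 the median was -0.08. An unadjusted p under 0.05 was then found for 2, both lower, against 3.07% of all tested probe sets on that side. Brighter members of the list were Col5a1, a minor fibrillar collagen chain, with a wild-type mean of 8.26 and a range of 6.86 to 9.17 over all arrays, Igfbp7 with a wild-type mean of 7.98 and the fibril-associated collagen gene Col14a1 with 6.74; their differences were -0.10, -0.15 and 0.22, and -0.44, -0.63 and -0.35 without Yaa 3. The medians over all 10340 tested genes were -0.02 and -0.03. Decorin (Dcn), lumican (Lum) and the collagen gene Col5a2 were among the 10 left out. The 3 with the smallest p were Eln, the elastin gene, at 0.51 ± 0.27 (SE), Fn1, which encodes fibronectin and is also made by macrophages, at 0.61 ± 0.41 (SE), and Fmod at 0.19 ± 0.19 (SE; limma adjusted p = 0.997 for each). Without Yaa 3 these were 0.32, 0.16 and 0.10. Fn1 read 9.52 in Yaa 3 against 7.34 to 8.04 for the other Yaa samples.

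Basement membrane genes were represented by 5 of 14, with 2 higher and 3 lower means and a median of -0.13, or -0.0020 without Yaa 3. The smallest p belonged to Col4a2, given above, the perlecan gene Hspg2, at 0.13 ± 0.20 (SE), and the nidogen gene Nid1, at -0.13 ± 0.21 (SE; limma adjusted p = 0.997 each). Without Yaa 3 the last 2 had -0.0020 and 0.017. Lamc1, a laminin gamma chain, was lowest in the pool, at 4.17 in Yaa 3 against 6.29 to 6.63 in the other Yaa arrays and 5.70 to 6.06 in wild type. Without Yaa 3 its groups did not overlap, as in 4.77% of all tested probe sets on the higher side. The Lamc1 difference was 0.05 ± 0.49 (SE) with all arrays and 0.62 ± 0.16 (SE) without Yaa 3 (limma adjusted p = 0.9998 and 0.449). Of the genes of collagen processing and matrix turnover 6 of 16 were tested, 5 with higher means. Against 2.97% of all tested probe sets, an unadjusted p under 0.05 with a higher mean was found for 2. These were P4hb, a subunit of prolyl hydroxylase that also acts as a general folding enzyme of secretory cells, at 0.27 ± 0.10 (SE), and P4ha1, its catalytic partner, at 0.44 ± 0.17 (SE; limma adjusted p = 0.997 for each). P4hb had non-overlapping groups, as did 2.43% of all tested probe sets on the higher side. Plod3, a lysyl hydroxylase, followed with 0.34 ± 0.19 (SE; limma adjusted p = 0.997). Without Yaa 3 P4hb, P4ha1 and Plod3 had 0.24, 0.36 and 0.15, and the list median went from 0.30 to 0.17, with 4 higher and 2 lower means. Mmp14 had -0.12 ± 0.39 (SE) with all arrays and -0.55 ± 0.18 (SE) without Yaa 3 (limma adjusted p = 0.997 and 0.591). Without Yaa 3 its groups did not overlap, as in 4.13% of all tested probe sets on the lower side. All 6 were highest in Yaa 3, and their list stood at 8.16 there and at 7.20 to 7.44 on the other arrays.

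Smooth muscle and pericyte genes were mostly too dim to test. Only 4 of 13 were tested; Tagln, Myh11, Cnn1, Des and Lmod1, which define smooth muscle, were below the filter. Myl9, a myosin light chain that platelets also contain, had 6.29, 6.03, 6.45 and 6.83 in wild type and 4.83, 6.40, 5.66 and 5.07 in Yaa, a difference of -0.91 ± 0.34 (SE; limma unadjusted p = 0.0249, adjusted p = 0.997). It was the lowest p of its list and opposite in sign to Acta2. Without Yaa 3 Myl9 had -0.97. Notch3 and Tpm2 had 0.52 and 0.32, and 0.33 and 0.015 without Yaa 3, which for Tpm2 read 7.16 against 5.67 to 6.26 on the other arrays. The list median was 0.29, and 0.026 without Yaa 3. With limma array weights 1 of the 4 was called, a setting in which 0.453% of all probe sets were called higher and 0.182% lower. In that setting 10 of 13 neutrophil genes and 3 of 12 monocyte and macrophage genes were also called, and no gene of any other list. Fibroblastic reticular cells were represented by Cxcl12 and Cxcl13 alone, at -0.05 and 0.01 (-0.29 and -0.077 without Yaa 3), with the other 8 on the array below the filter, Pdgfra and Pdpn among them.

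**Figure D4:**
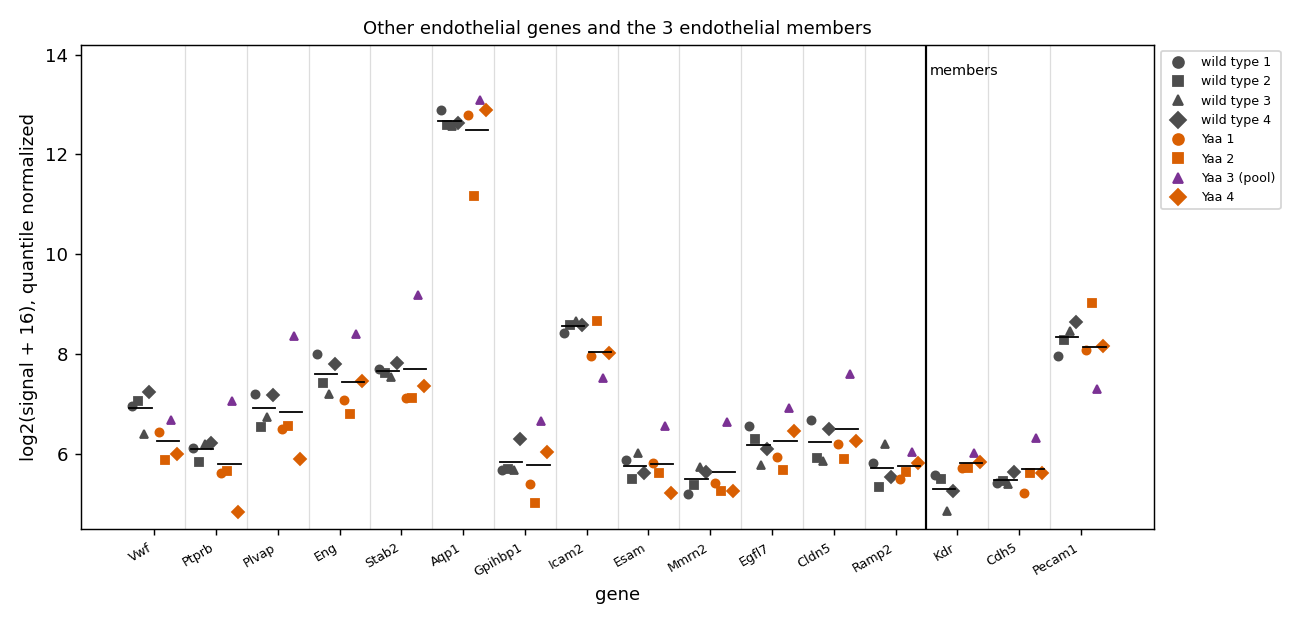
Log2 values per array for 13 other endothelial genes, ordered by their difference without the pool, and for Kdr, Cdh5 and Pecam1 (right of the line), with lines at group means. Yaa 3 is the highest array in 10 of the 13, and all 13 have lower means than wild type once it is left out.

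The other endothelial genes were mostly highest in the pool and had lower means than wild type in the single-spleen Yaa arrays. With all arrays 6 of the 13 tested had higher and 7 lower means, with a median of -0.06. Yaa 3 was the highest of 8 arrays in 10 of them, among them Stab2, a scavenger receptor of sinus endothelium, which read 7.69, 7.62, 7.54 and 7.81 in wild type and 7.12, 7.12, 9.18 and 7.35 in Yaa. Without Yaa 3 all 13 had lower means, with a median of -0.36, and limma called 0. An unadjusted p under 0.05 was then found for 4, against 3.07% of all tested probe sets on the lower side. The median over all genes was then -0.03. On the deposited scale and with median-centred arrays, also without Yaa 3, again 13 of 13 had lower means, with medians of -0.42 and -0.38. Without both Yaa 2 and Yaa 3, 11 of 13 had lower means, with a median of -0.24, and without Yaa 2 alone 10 of 13 had higher means. Vwf, the von Willebrand factor of endothelium and platelets, was lower by 0.66 with all arrays and differed by -0.81 ± 0.22 (SE) without Yaa 3 (limma adjusted p = 0.978 and 0.499). Icam2, also on leukocytes and platelets, had the next smallest p, at -0.52 ± 0.22 (SE), and Ptprb followed with -0.30 ± 0.40 (SE; limma adjusted p = 0.997 each). Without Yaa 3 they had -0.34 ± 0.19 (SE) and -0.72 ± 0.23 (SE; limma adjusted p = 0.715 and 0.584). Icam2 read 8.67 in Yaa 2 and was lowest in Yaa 3, at 7.52, where lymphocyte genes were also lowest. Aqp1, the brightest of the 13, read 11.16 in Yaa 2 and 12.56 to 13.10 on the other arrays. Erythroid genes were likewise lowest in Yaa 2. The part of blood cells in the values of this list was not tested. Without Yaa 3 the endothelial members were on the other side from all 13, Kdr at 0.47, Cdh5 at 0.0047 and Pecam1 at 0.08. For Cdh5 and Pecam1 this was less than the SE of 0.18 and 0.25. That contrast was not tested. Of the 11 on the array that did not pass the filter, Tek, Tie1, Flt1, Emcn and Cd34 are defining endothelial genes.

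Markers of other cell types also differed between arrays. Platelet and megakaryocyte genes (14 of 14 on the array tested) averaged 7.24 to 7.42 in wild type, 6.77 to 6.996 in Yaa 1, 2 and 4, and 7.504 in Yaa 3. That is the same order as in the endothelial list, which averaged 6.90 to 7.16, 6.53 to 6.75 and 7.75. With all arrays 11 of the 14 platelet and megakaryocyte genes had lower means, with a median of -0.28. Without Yaa 3, 13 of the 14 had lower means with a median of -0.48. Of these, 5 had an unadjusted p under 0.05, against 3.07% of all tested probe sets on the lower side. The platelet chemokine gene Ppbp had -0.59 ± 0.22 (SE), Nfe2 -0.62 ± 0.40 (SE), and Selp, shared by platelets and endothelium, 0.41 ± 0.15 (SE; limma adjusted p = 0.997 each). Nfe2 and Gata1, the brightest of this list, read 9.18 and 7.90 in Yaa 2, where erythroid genes were also lowest. On the other arrays they read 10.78 to 11.47 and 10.05 to 10.81. Red pulp macrophage genes (10 of 12 tested) were highest in Yaa 3 in 10 of 10, at a list mean of 10.35 against 8.87 to 9.25 in the other Yaa arrays and 9.02 to 9.11 in wild type. Of these, 9 of 10 had higher means, with a median of 0.31, and 5 of 10 without Yaa 3, with a median of -0.059. C1qa had 0.85 ± 0.29 (SE), Timd4 0.43 and C1qb 0.45, and 0.52, 0.23 and 0.12 without Yaa 3. The part of platelets and macrophages in the member values was not tested.

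Monocyte and macrophage genes (12 tested) averaged 8.24 to 8.34 in wild type and 8.45 to 9.34 in Yaa, with 11 higher means. An unadjusted p under 0.05 was found for 6, all higher, against 2.97% of all tested probe sets on that side. The median went from 0.73 to 0.41 without Yaa 3, where 10 had higher means. The smallest p were those of the lipopolysaccharide co-receptor gene Cd14, at 2.44 ± 0.33 (SE), the lysozyme gene Lyz2, at 0.98 ± 0.19 (SE), and the Fc receptor gene Fcgr4, at 0.84 ± 0.20 (SE; limma adjusted p = 0.0978, 0.412 and 0.568). Neutrophil genes (13 tested) averaged 7.76 to 8.46 and 8.16 to 10.35, with 13 higher means. Of these, 8 had an unadjusted p under 0.05, against the same 2.97% of all tested probe sets. The median was 1.43, and 1.27 without Yaa 3. Here Mmp9, a protease of neutrophil granules, had 1.27 ± 0.18 (SE), and the calprotectin genes S100a9 and S100a8 had 1.47 ± 0.27 (SE) and 1.30 ± 0.30 (SE; limma adjusted p = 0.110, 0.334 and 0.558). Pecam1, which these cells also carry, was highest in Yaa 2, where neutrophil genes averaged 8.16, the lowest of the Yaa arrays.

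Lymphocyte genes were lowest in the pool, as Pecam1 was. T cell genes (8 tested) averaged 5.30 in Yaa 3, 9.41 in Yaa 2 and 8.37 to 8.85 on the other arrays. With all arrays 8 of 8 had lower means, with a median of -0.66, and 7 of 8 higher means without Yaa 3, with a median of 0.24; Ccr7, Cd3e and Cd5 had -1.14, -0.93 and -0.68 with all arrays and -0.025, 0.070 and 0.12 without Yaa 3. B cell genes had lower means in 9 of 9, with a median of -1.25 that was -0.11 without Yaa 3; Pax5, Cd79b and Cd37 had -0.40, -1.25 and -1.12, and -0.11, -0.17 and -0.14 without Yaa 3. B and T cell genes had their highest and lowest averages in the same arrays as Pecam1, Yaa 2 and Yaa 3. Erythroid genes (9 tested) averaged 10.26 in Yaa 2 and 11.93 to 12.24 on the other arrays, with lower means in 9 of 9 and a median of -0.41; Bpgm, Rhd and Alas2 had -0.58, -0.71 and -0.41. Without Yaa 2, 6 of 9 erythroid genes had higher means and the median was 0.011; without Yaa 3 it was -0.56. The part of these cells in the member values was not tested.

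Genes of tissue next to the spleen were mostly below the filter. Of 9 mesothelial genes 0 passed it, and their highest value on any array was 5.35. The pancreas list had 2 of 8 tested, the protease genes Prss2 and Cela1, at -0.47 ± 0.42 (SE) and -0.14 ± 0.43 (SE; limma adjusted p = 0.997 each). Without Yaa 3 they had -0.84 and -0.52. Cela1 read 9.85 in Yaa 3 and 7.47 to 9.16 on the other arrays, while Cpa1, Cpb1, Cel and Ctrb1, which define acinar cells, were below the filter. Of 6 fat genes 1 was tested, Fabp4, also made by endothelium and macrophages. It had 7.08 in Yaa 3 and 5.49 to 6.03 on the other arrays, with a difference of 0.16 that was -0.20 without Yaa 3, and Adipoq, which defines fat cells, was below the filter.

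**Figure D5:**
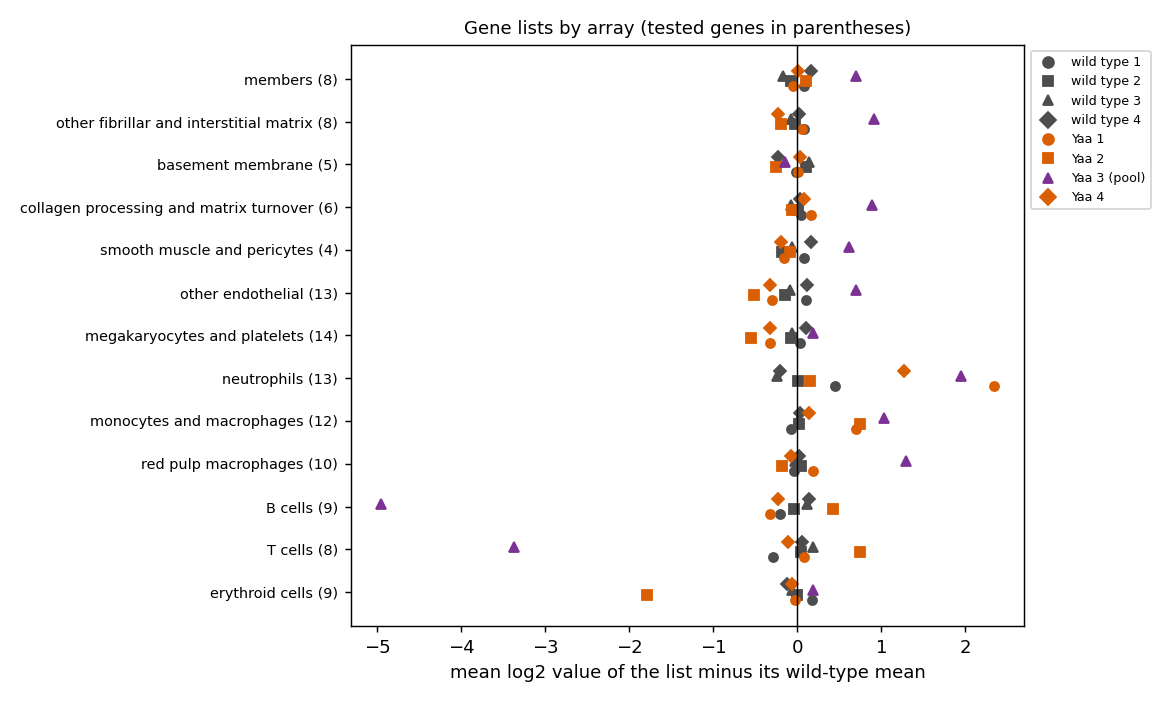
Mean log2 value of the tested genes of each list on each array, minus the wild-type mean of the list (number of tested genes in parentheses). The pooled Yaa 3 (purple) lies to the right for members, matrix, smooth muscle, endothelial and macrophage lists and far to the left for B and T cells; for basement membrane genes it lies among the other arrays.

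Profiles over the 8 arrays were compared by the root-mean-square distance of standardised values, a description with 8 points. Closest to the mean profile of Col1a1, Col1a2 and Col3a1, which itself ran only from 4.75 to 5.50, were Focad (0.112), Pih1d1 (0.191), Dazap1 (0.200) and Tlnrd1 (0.203), against a median distance of 1.15 over all tested genes. Closest to the mean of Kdr and Cdh5 were Prss22 (0.155), Plpp5 (0.210), Pfdn4 (0.212) and Hbegf (0.222), against 1.23. None of these 8 is in the stromal or endothelial lists.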

How the data were processed

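Each array was summarised by the authors to 1 intensity per probe set with MAS5, as named in the submitters' processing notes. The version and scaling target are not given in the sources. The deposited table held 45101 probe sets (64 controls) on 8 arrays. All arrays were quantile normalized and taken as log2(signal + 16), which understates changes of dim probe sets. Probe sets at or below the median mean log2 value (5.38) were not tested. Groups were tested by limma 3.58.1 (R 4.3.3; lmFit, eBayes with a mean-variance trend, Benjamini-Hochberg adjustment). Fits that left arrays out kept the normalized values and the tested probe sets. The fit was checked on simulated data. For genes outside the members, symbols were updated through Entrez IDs to GRCm38.p6 (34754 matched), and the tested probe set with the highest mean stood for a gene.

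Members and lists were chosen with earlier results of these data known. Named are all member probe sets, up to 3 genes per other list by smallest p, and the 4 genes nearest to each of the collagen and endothelial profiles; other genes were named after their values were seen. The number of arrays limits precision, and nothing beyond the labels says how independent the mice were. Alternatives covered pseudocount, filter, scaling, variance model, array weights, a replicate block and arrays left out. Sequences are from RefSeq (GRCm38.p6). Plots used matplotlib 3.10.9 (Python 3.11.15).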

Additional observations from a re-analysis of the deposited data

Results flagged for a closer look

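Within groups of 4, a single array stood apart by Dixon's criterion for the gap to the nearest value over the range in 8 of 70 groups of values examined; chance marks about 1 in 20. Among the members this was Yaa 3 for Sparc 1416589_at at 9.15 (others 6.76 to 7.06), for Bgn 1416405_at at 6.75 (others 5.95 to 6.07) and for Col1a2 1446326_at at 4.43 (others 4.10 to 4.15, near the bottom of the scale), and wild type 2 for Sparc 1416589_at at 6.39 (others 7.21 to 7.37). Among the list means it was Yaa 3 for smooth muscle and pericyte genes at 6.37 (others 5.56 to 5.67) and for B cell genes at 5.57 (others 10.20 to 10.94), Yaa 2 for erythroid genes at 10.26 (others 11.99 to 12.24), and wild type 1 for monocyte and macrophage genes at 8.24 (others 8.33 to 8.34).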

How the results depend on the processing

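No member probe set passed limma's threshold in the main analysis or in any of the 19 alternatives run; the stricter filter left only Pecam1 of them to test. The differences of Acta2 (0.40 to 0.74), Kdr (0.26 to 0.81) and Sparc 1448392_at (0.15 to 0.58) kept their sign in every alternative. Others turned sign. With array weights Cdh5 had -0.076, Col4a1 1426348_at -0.052 and Col4a1 1452035_at -0.25. Without Yaa 2 and Yaa 3 together Cdh5 had -0.062, Col4a1 1426348_at -0.14, Col4a1 1452035_at -0.40 and Sparc 1416589_at -0.048. Col4a1 1452035_at had -0.13 on the deposited scale and -0.0043 after median centring. With single arrays left out the ranges were -0.21 to 0.057 for Bgn, -0.26 to 0.029 for Col1a2, -0.34 to 0.50 and -0.32 to 0.27 for Col4a1, -0.49 to 0.079 for Pecam1 and -0.14 to 0.66 for Sparc 1416589_at; besides Yaa 3, wild type 3 turned both Col4a1 probe sets (-0.14 and -0.019). Over all probe sets, 1 was called higher and 0 lower; the counts were 7 higher with a pseudocount of 1, 0 higher with the stricter filter, 102 higher and 41 lower with array weights, 74 and 29 without Yaa 2 and Yaa 3, and 1 to 28 higher and 0 to 3 lower with single arrays left out (28 and 3 without Yaa 2, 9 and 2 without Yaa 4, 1 and 1 without Yaa 1). On the deposited scale the median difference of all tested probe sets was -0.20, against -0.01, and 18.3% had higher means, against 47.6%; after median centring these were -0.07 and 35.7%. Paired by label number (replicate block), 0 were called higher and 0 of the members. A separate check of same-numbered arrays gave values of -0.37 to 0.02. These are not the plain correlations between arrays, which were 0.81 or above for every pair. With so few pairs this check cannot show whether the numbers carry a pairing or a batch. Settings that combined another scaling with the loss of Yaa 3 were chosen after seeing the data. The causes of these shifts were not tested. Signals near the bottom of the scale limit what can be said of Col1a1, Col3a1 and most probe sets of Col1a2.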
